A study of Drosophila melanogaster with 4 samples.

Results

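The genes described here were grouped as genes for enzymes that break down food in the fly gut. They were read in RNA from Drosophila melanogaster ovaries. They are 43 genes of 14776 named in the tables, chosen by name with earlier results of these data known. Shares of these genes set beside all features therefore describe the list and do not test it. They comprise 9 trypsins, 15 Jonah proteases, 8 maltases, 6 lysozymes, 2 amylases and 3 further genes, CG12374, CG6295 and CG5107. Transcript values were summed per gene in each library.

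Ovaries after RNA interference in the embryo against white (white-embKD), an eye-colour gene, served as the control for ovaries after interference against piwi (piwi-embKD), which encodes a nuclear Argonaute protein that binds piRNAs. Each group had 2 libraries. Both groups carried vasa-GAL80[ts] over a wild-type chromosome and da-GAL4, and differed in the hairpin, shwhite or shpiwi. In both groups flies were kept at 18 °C and embryos were shifted to 28 °C to switch on RNA interference. GAL80[ts] is a heat-sensitive inhibitor of GAL4, the activator that drives the hairpin. The da promoter is known to be active in most tissues and vasa in the germline, and the age of the flies is not given in the sources used here. Each group carried its own hairpin line, so a difference between lines and an effect of the piwi knockdown cannot be told apart.

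Digestive enzymes are made mainly by the enterocytes of the midgut. Trypsins and the Jonah proteases are serine proteases that cut dietary protein, amylases split starch, maltases are alpha-glucosidases that split maltose, and the digestive lysozymes cut the walls of ingested bacteria. Many of these genes sit in tandem clusters in the fly genome. In bulk RNA fewer cells of a type and less RNA per cell cannot be told apart.

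All levels here are effective counts after the authors' normalization, and a library summed to between 970340 and 1017515. The inferred depth was 16194219 to 16445363 effective counts in the piwi libraries and 19271510 to 20025084 in the 2 white-embKD libraries, called the control pair below. A gene at 0 could have held up to 3 counts, a value of 0.148 to 0.188, which covers counting error only. The targeted gene, piwi, read 410.0 and 401 in the control pair, against 238 in piwi-embKD replicate 1 and 121 in replicate 2 (log2 change −1.25, limma adjusted p = 0.056). The white gene (w), the target in the controls, read 1.35 and 1.19 there and 3.34 and 2.87 in the piwi libraries.

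The 2 piwi libraries stood far apart in these genes, and each is given separately throughout. Summed over the 43 genes, the level was 642 and 617 in the control pair, 483 in piwi-embKD replicate 1 and 128 in replicate 2. Almost all of the last value came from the maltase gene Mal-A5. Without Mal-A5, which was set apart after its values were seen, the sums were 482, 451, 347 and 2.14. The last of these rested on 35.0 effective counts and was 0.459% of the white mean, with an exact Poisson 95% interval of 0.32% to 0.638%. That interval covers counting error only and takes effective counts as independent molecules, although most are not whole. For the sum of all 43 genes, 2 libraries against 2 allow no two-sided p below 0.333 in an exact permutation test, so none is given.

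Of the 43 genes, 31 had a mean of at least 0.995 over the 4 libraries and were tested. Because that mean takes in the control pair, a gene could pass through its white level alone. Of the 12 others, 5 (Jon66Ci, Jon66Cii, Jon74E, LysP and LysS) were listed at 0 in all 4 libraries. The remaining 7 (gammaTry, deltaTry, zetaTry, etaTry, iotaTry, LysE and LysX) had white means of 0.208 to 1.16. In the tested genes the control libraries were close to each other, with a ratio of replicate 1 to replicate 2 between 0.815 and 1.49 and a median of 1.06.

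Among the 31 tested genes, 30 stood under 5% of the white mean in piwi-embKD replicate 2, against 1.36% of all 8118 features tested. Of these, 13 were listed at 0, and the highest was Jon99Ciii at 0.339, which is 5.54 effective counts. Of all 43 genes 38 lay below both control libraries there and 0 above (50.8% and 37.6% of features). In piwi-embKD replicate 1 the tested genes spread both ways: 20 (64.5%) lay below both control libraries and 11 (35.5%) above both. Features at large gave 44.1% below and 40.4% above. In size, 8 of the 31 genes stood under 20% of the white mean in piwi-embKD replicate 1, against 0.407% of all features, and 5 stood above 2 times the white mean, against 6.81%.

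With both piwi libraries in the fit, 9 of the 43 genes fell and 0 rose in piwi-embKD ovaries, where a call needs an adjusted p under 0.05 in limma over all 8118 features. The background was 1.68% of features lower and 5.17% higher, 6.85% in all. Both piwi libraries lay below both control libraries in 20 of the tested genes (33.1% of features) and above them in 0 (25.9%). At an unadjusted p under 0.05 limma placed 14 of the genes lower. The share of all features at that threshold was not counted, so this number has no background beside it. The 9 genes were epsilonTry, Jon25Bi, Jon25Bii, Mal-A6, LysB, LysD, CG12374, CG6295 and CG5107. The median log2 change of the 31 tested genes was −2.20, against −0.04 for all features. Without piwi-embKD replicate 1 all 31 were lower (background 19.2% lower, 16.9% higher, 36.1% in all). Without piwi-embKD replicate 2, 33 genes passed the filter and 14 were lower (background 8.92%) while 6 were higher (background 11.0%, and 19.9% in all). This fit sets piwi-embKD replicate 1 against the control pair and assumes that the lone library varies like the others. Here and below, its standard errors and passes do not cover the spread between the piwi libraries, which was wide in most of these genes. The same holds for the fit without piwi-embKD replicate 1.

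**Figure D1:**
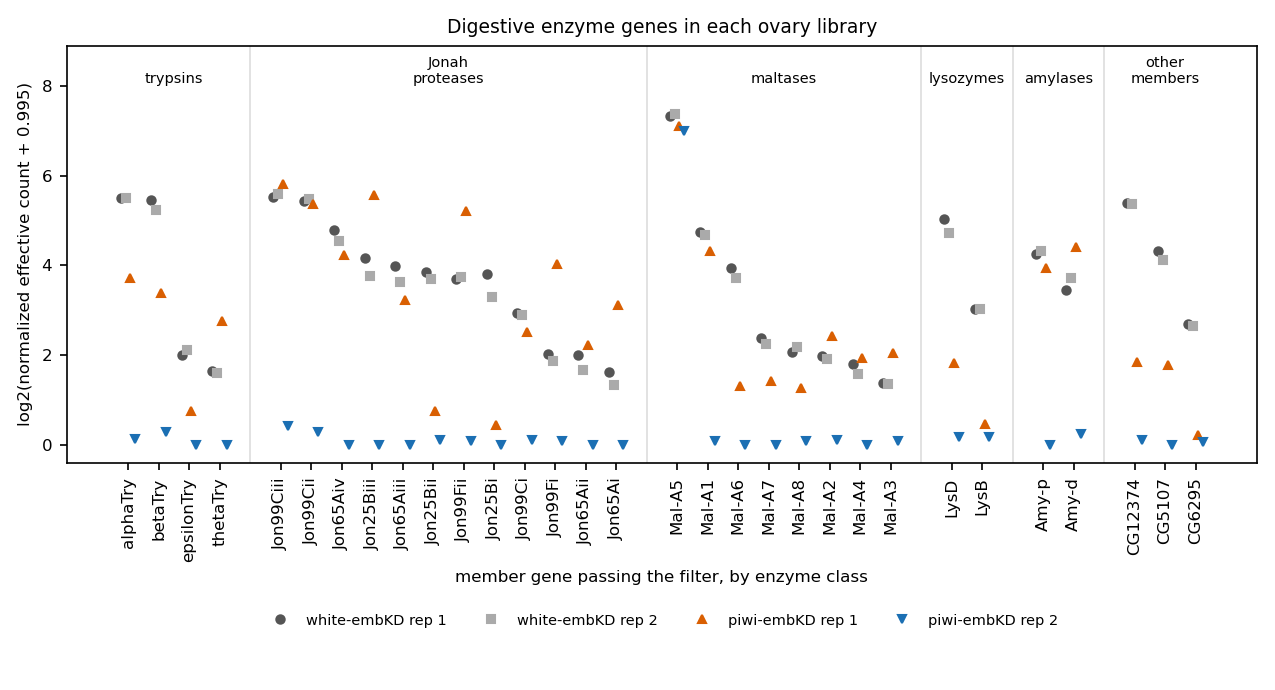
Level of each of the 31 tested digestive enzyme genes on the log2(value + 0.995) scale (vertical axis) in the 4 libraries, grouped by enzyme class and ordered by white mean (horizontal axis), with 1 point per library. piwi-embKD replicate 2 lies near 0 for every gene but Mal-A5, and piwi-embKD replicate 1 lies below the control pair for 20 genes and above it for 11.

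The trypsins, which cut protein after lysine and arginine, were led by alphaTry and betaTry, with white levels per kilobase of 51.4 and 37.3. The gene alphaTry (RefSeq NM_057423) read 44.1 and 44.4 in the control pair, 12.2 in piwi-embKD replicate 1 and 0.099 in replicate 2. The gene betaTry (NM_080165) read 43.05 and 36.9, then 9.45 and 0.219. In each gene both piwi values were under both control values, but the piwi pair was so wide apart that neither passed. The log2 changes were −3.57 ± 1.03 (SE, limma adjusted p = 0.101) for alphaTry and −3.52 ± 0.89 (SE, limma adjusted p = 0.0753) for betaTry. Both passed with the larger pseudocount, and both stayed lower with either piwi library left out.

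The gene epsilonTry read 2.99 and 3.34 in the control pair, 0.684 in piwi-embKD replicate 1 and 0 in replicate 2. It fell by 1.68 ± 0.34 (SE) on the log2 scale (limma adjusted p = 0.0409). Leaving out either control library ended the call (limma adjusted p = 0.245 and 0.361), as did the smaller pseudocount, median-of-ratios scaling and no filter, and over all alternatives its limma adjusted p ran from 0.00152 to 0.361. The gene thetaTry, in the same run of trypsin genes, read 2.13 and 2.03 in the control pair, 5.76 in that library and 0 in replicate 2. Set against the control pair alone, piwi-embKD replicate 1 was higher in thetaTry by a log2 change of 1.14.

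The 5 remaining trypsins were low. The levels of zetaTry, etaTry and iotaTry in the control pair lay between 0.171 and 0.963, and all 3 were higher in piwi-embKD replicate 1 (1.23, 0.635 and 1.016) and at 0 in replicate 2. The gene deltaTry was at 0.055 and 1.21 in the control pair, against 2.33 and 0 in the piwi pair, so its control libraries were far apart. Its near-identical neighbour gammaTry, whose RefSeq transcript appears as 3 targets in the tables, was at 1.33 and 0.681 in the control pair, against 0.074 and 0 in the piwi pair. How fragments were shared among such copies by eXpress bears on these values, and they are uncertain.

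The Jonah proteases, a family of short secreted serine proteases, had the largest summed count of the classes once Mal-A5 was set aside, a sum that is not scaled for length. Of the 15 genes 12 were tested, and 2 of them fell. Jon25Bi (NM_001038784, arm 2L) read 13.1 and 8.77 in the control pair, against 0.367 and 0 in piwi-embKD replicates 1 and 2. Jon25Bii (NM_135038) read 13.5 and 11.9, then 0.692 and 0.077. In both genes the groups were far apart and both piwi libraries were low. The log2 changes came to −3.33 ± 0.30 (SE, limma adjusted p = 0.00226) for Jon25Bi and −3.34 ± 0.28 (SE, limma adjusted p = 0.0019) for Jon25Bii, and both calls were kept in all 11 alternatives.

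Jon25Biii (NM_135037), the third gene of that cluster, differed from both in piwi-embKD replicate 1. It read 16.9 and 12.6 in the control pair, 46.4 in piwi-embKD replicate 1 and 0 in replicate 2. That library was 3.15 times the white mean in Jon25Biii, while it was at 3.36% and 5.45% of the white mean in Jon25Bi and Jon25Bii. The change of Jon25Biii against the control pair was 1.61 on the log2 scale without piwi-embKD replicate 2 and −3.97 without replicate 1. With both piwi libraries the log2 change of −1.18 ± 1.59 (SE) did not pass.

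The same pattern held in 3 further Jonah genes, each higher in piwi-embKD replicate 1 and near 0 in replicate 2. Jon99Fi read 3.07 and 2.65 in the control pair, against 15.4 and 0.062 in the piwi libraries, the highest ratio of piwi-embKD replicate 1 to the white mean (5.37) among the tested genes. Jon99Fii read 11.9 and 12.4, then 36.2 and 0.065. Jon65Ai read 2.06 and 1.52, then 7.64 and 0. Against the control pair alone, piwi-embKD replicate 1 was higher by log2 changes of 2.09, 1.5 and 1.64 in Jon99Fi, Jon99Fii and Jon65Ai. With both piwi libraries their log2 changes were 0.11 ± 1.14, −1.06 ± 1.46 and 0.08 ± 0.92 (SE), and none passed.

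Jon99Cii and Jon99Ciii, the Jonah genes with the highest white levels per kilobase (49.8 and 37.3), were near their white level in piwi-embKD replicate 1. Jon99Ciii (NM_170451, arm 3R) read 45.3 and 47.4 in the control pair, 55.4 in piwi-embKD replicate 1 and 0.339 in replicate 2. Jon99Cii read 42.6 and 43.2, then 40.6 and 0.226. The library and the control pair were within a log2 difference of 0.25 ± 0.09 for Jon99Ciii and −0.08 ± 0.10 (SE) for Jon99Cii, and neither passed. Jon99Ci was at 6.64 and 6.43 in the control pair, against 4.70 and 0.086 in the piwi pair.

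The other Jon65A genes completed the class. Jon65Aiv read 26.5 and 22.4 in the control pair, against 17.8 and 0 in the piwi libraries. Jon65Aiii read 14.8 and 11.4, then 8.37 and 0, and Jon65Aii read 3.02 and 2.17, then 3.65 and 0. In each of these 3 the spread of the piwi pair left the change short of the threshold (limma adjusted p = 0.211 to 0.53), and piwi-embKD replicate 1 alone did not differ from the control pair by the same threshold.

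Among the maltases, Mal-A5 stood apart from its 7 neighbours on arm 2R. It was at 160.1 and 166 in the control pair, against 136 and 126 in the piwi libraries, and was the only member with more than 0.339 in piwi-embKD replicate 2. Its piwi values were both under its control values, with means of 163 ± 4.10 and 131 ± 7.37 (SD, n = 2 each). The log2 change of −0.31 ± 0.09 (SE) did not pass (limma adjusted p = 0.109). It was −0.26 without piwi-embKD replicate 2 and −0.37 without replicate 1. Per kilobase of the longest annotated transcript, Mal-A5 had the highest white level of the members (77.5), ahead of LysD (59.2), alphaTry (51.4) and Jon99Cii (49.8).

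Mal-A6, next to Mal-A5, fell. It read 14.3 and 12.2 in the control pair, against 1.5 and 0 in the piwi libraries. The log2 change was −3.18 ± 0.43 (SE, limma adjusted p = 0.0105), and the call was lost with the smaller pseudocount and with no filter (range of the limma adjusted p over alternatives, 5.9e-05 to 0.105). Mal-A7 read 4.2 and 3.76, then 1.68 and 0, and Mal-A8 read 3.2 and 3.52, then 1.39 and 0.061. These were lower in both piwi libraries but did not pass (limma adjusted p = 0.107 and 0.102).

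The 4 maltase genes at the other end of the run differed from these in piwi-embKD replicate 1. Mal-A1 read 25.9 and 24.4 in the control pair, 19.0 in that library and 0.062 in replicate 2. Mal-A2, Mal-A3 and Mal-A4 had white means of 2.84, 1.59 and 2.22 and read 4.34, 3.14 and 2.82 in piwi-embKD replicate 1, above both control libraries. None of these 4 passed, with or without piwi-embKD replicate 2. In piwi-embKD replicate 2 they lay at 0.075 or lower.

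The digestive lysozymes were low in both piwi libraries. LysD (NM_057475, arm 3L) read 31.5 and 25.3 in the control pair, against 2.52 and 0.128 in piwi-embKD replicates 1 and 2. LysB read 7.18 and 7.10, then 0.393 and 0.13. Both genes fell, with log2 changes of −3.88 ± 0.50 (SE, limma adjusted p = 0.00902) for LysD and −2.70 ± 0.25 (SE, limma adjusted p = 0.00266) for LysB. The call of LysD was lost with no filter (range of its limma adjusted p over alternatives, 9.2e-06 to 0.105). LysE was at 0.363 and 0.357 in the control pair, against 0.154 and 0 in the piwi pair. LysX was at 0.617 and 1.71, then 0 and 0.143, while LysP, known from the salivary gland, and LysS were at 0 throughout. The lysozyme genes other than LysX lie side by side, and LysB, LysD and LysE are known to be alike in sequence, so the division of fragments among them is uncertain.

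The amylases are tandem copies on arm 2R, whose sum in piwi-embKD replicate 1 was 117% of the white mean. Amy-p read 18.0 and 19.1 in the control pair, against 14.5 and 0 in the piwi libraries. Amy-d read 9.89 and 12.1, then 20.1 and 0.177. Neither passed with both piwi libraries (limma adjusted p = 0.259 and 0.535). Piwi-embKD replicate 1 alone was higher in Amy-d by a log2 change of 0.82, and the change in Amy-p was −0.34. As near-identical copies, their separate values are uncertain, and their sum was 27.8 and 31.2 in the control pair and 34.6 in piwi-embKD replicate 1.

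The 3 further genes were low in both piwi libraries, and all 3 fell. CG12374 (NM_136975, arm 2R), which encodes a carboxypeptidase, read 40.8 and 40.5 in the control pair, against 2.60 and 0.074 in the piwi libraries. Its log2 change of −4.41 ± 0.52 (SE, limma adjusted p = 0.00652) was the largest fall among the members. CG6295, of the lipase family, read 5.44 and 5.23, then 0.167 and 0.054. CG5107 read 18.9 and 16.3, then 2.44 and 0. Their log2 changes were −2.52 ± 0.26 (SE, limma adjusted p = 0.00373) and −3.33 ± 0.54 (SE, limma adjusted p = 0.0196). With no filter the calls of CG12374 and CG5107 were lost, and that of CG5107 also with the smaller pseudocount. Over the alternatives the limma adjusted p ran up to 0.0943 for CG12374 and up to 0.13 for CG5107.

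The class sums differed from each other in piwi-embKD replicate 1, whereas in piwi-embKD replicate 2 each was near 0 apart from Mal-A5. Trypsins summed to 95.3 and 90.1 in the control pair, 33.4 in piwi-embKD replicate 1 and 0.318 in replicate 2. Jonah proteases summed to 199 and 183, then to 237 and 0.854. Maltases without Mal-A5 summed to 54.6 and 50.3, then to 33.9 and 0.262. Lysozymes summed to 39.7 and 34.5, then to 3.07 and 0.401. As a percent of the white mean, piwi-embKD replicate 1 therefore held 124% of the Jonah signal, 117% of the amylase signal, 64.7% of the maltase signal without Mal-A5, 36.0% of the trypsin signal and 8.27% of the lysozyme signal. These are descriptions of 1 library against 2, with no test of a difference between classes. Genes within a class differed as well, and alphaTry and betaTry made up most of the trypsin sum. In that library 5 trypsins lay above both control libraries and 4 below, and 6 Jonah proteases lay above and 6 below. Of the maltases without Mal-A5, 3 lay above and 4 below, while 0 lysozymes lay above and 4 below.

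The make-up of the summed signal moved in the same way. Without Mal-A5, Jonah proteases held 41.3% and 40.5% of the members' signal in the control pair and 68.3% in piwi-embKD replicate 1. The trypsins held 19.8% and 19.98%, then 9.62%. Lysozymes held 8.24% and 7.65%, then 0.883%, and the 3 further genes held 13.5% and 13.8%, then 1.5%. The 35.0 effective counts of piwi-embKD replicate 2 are too few to describe a make-up. The median log2 change with both piwi libraries was −2.60 for the 4 tested trypsins, −1.90 for the 12 Jonah proteases, −1.09 for the 8 maltases and −3.29 for the 2 lysozymes, against −0.04 for all features. Without piwi-embKD replicate 2 the Jonah median was 0.09 and the lysozyme median −2.80.

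**Figure D2:**
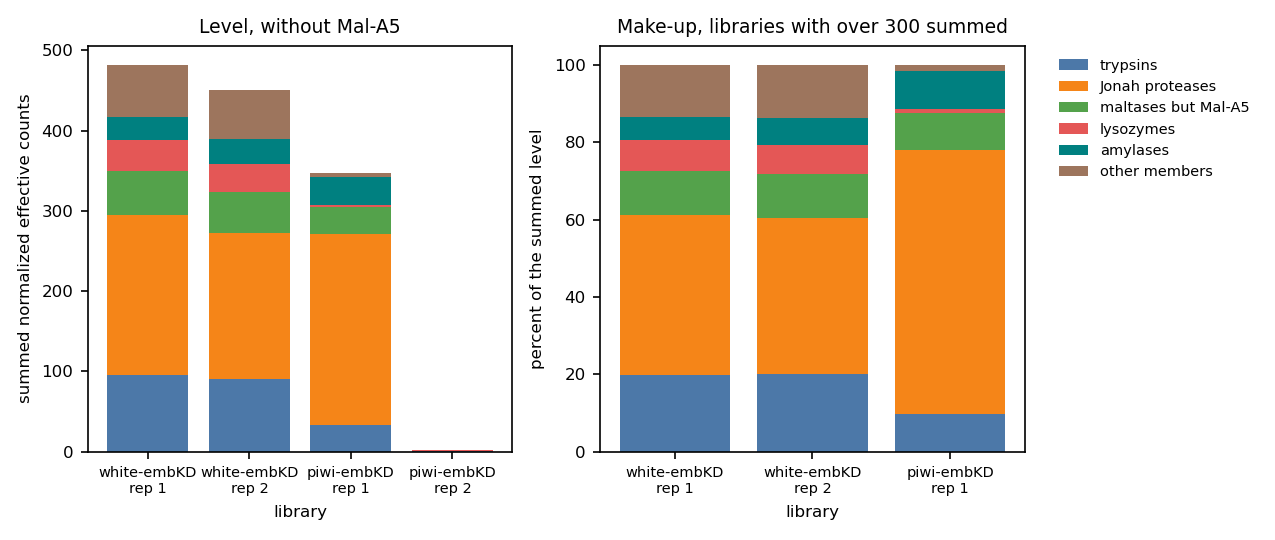
Summed normalized effective counts of the members without Mal-A5 in each library, stacked by enzyme class (left, vertical axis from 0), and the percent of that sum in each class for the 3 libraries with over 300 summed (right). piwi-embKD replicate 2 sums to 2.14, and in piwi-embKD replicate 1 the Jonah share is 68.3% and the lysozyme share 0.883%.

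In piwi-embKD replicate 1 neighbours lay on both sides of the white mean in the Jon25B, Jon65A, Jon99C, Mal-A, trypsin and amylase runs. This describes position only, and differences between neighbours were not tested. In the Jon25B cluster of 3 genes the percent of the white mean ran from 3.36% to 315%. In the Mal-A run of 8 genes it ran from 11.3% for Mal-A6 to 197% for Mal-A3. In the trypsin run of 9 genes it ran from 7.35% for gammaTry to 370% for deltaTry. These extremes are near-identical copies, so the division of fragments between them is uncertain. Among the tested trypsins it ran from 21.6% for epsilonTry to 277% for thetaTry. The Jon65A run of 4 genes went from 63.8% for Jon65Aiii to 426% for Jon65Ai. The amylase pair went from 78.1% to 183%, but its separate values are uncertain and its sum was at 117%. The Jon99C cluster was more even, at 71.97% to 120% over 3 genes, and both Jon99F genes were high, at 298% and 537%. Gene order came from a Release 6 table, which is not the authors' build, and no coordinate is given.

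**Figure D3:**
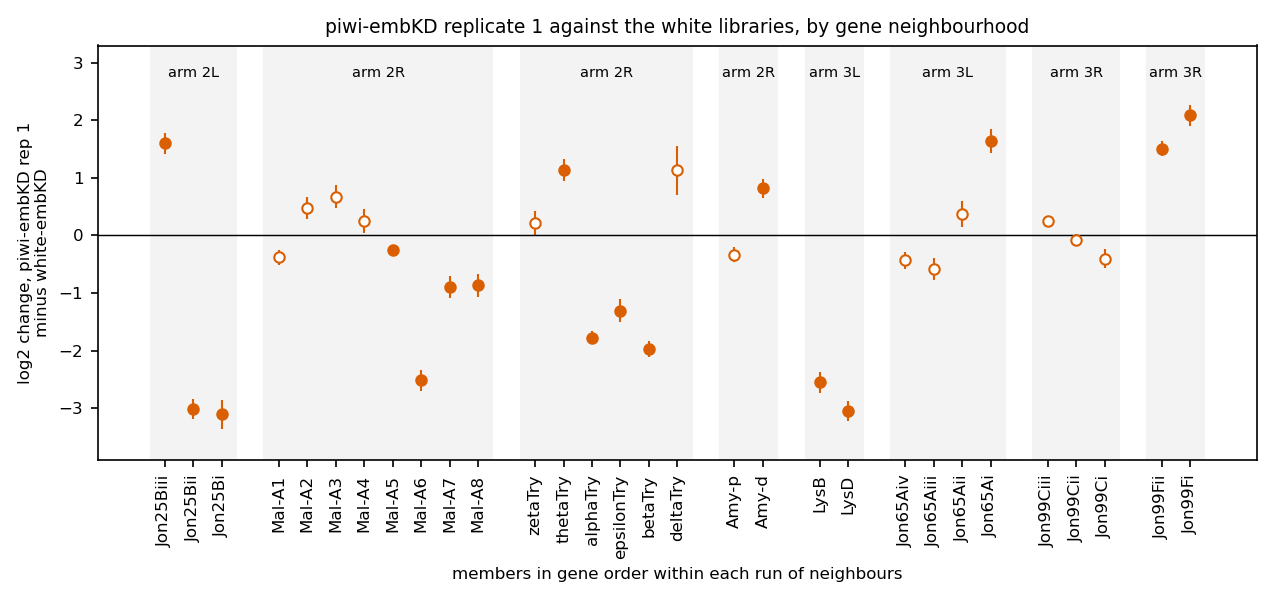
Log2 change of piwi-embKD replicate 1 against the control pair (vertical axis, log2(value + 0.995) scale, bars are standard errors) for members in gene order, with each shaded block a run of neighbouring members and its chromosome arm. Filled points passed in that fit (limma, adjusted p under 0.05), which takes in no spread between piwi libraries, and open points did not. Jon25Biii lies at 1.61 beside Jon25Bii at −3.02 and Jon25Bi at −3.11.

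Most tested digestive genes outside the members, from a list of 57 by name, were also near 0 in piwi-embKD replicate 2, but the list's sum was not. The sum was 398 and 378 in the control pair, 522 in piwi-embKD replicate 1 (135% of the white mean) and 272 in replicate 2 (70.1%). Most of the last value came from CG2915 (154), CG31661 (77.3) and Mal-B2 (28.1). Of the 57, 30 were tested, and 22 of those stood under 5% of the white mean in that library, against 1.36% of all features. Listed at 0 were 10 and 9 of the 57 genes in the control pair, 5 in piwi-embKD replicate 1 and 34 in replicate 2. Over all 14776 genes, 4720 and 4763 were at 0 in the control pair, 4375 in piwi-embKD replicate 1 and 4900 in replicate 2. In piwi-embKD replicate 1, 11 of the 30 stood above 2 times the white mean, against 6.81% of features. Under 20% of the white mean stood 3 of the 30, against 0.407% of features.

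With both piwi libraries, 3 of the 30 tested genes fell and 2 rose, against 1.68% of features lower and 5.17% higher. The alpha-glucosidase gene tobi read 11.7 and 11.8 in the control pair, against 1.95 and 1.12 in the piwi libraries. CG18179, a serine protease gene, read 4.75 and 3.90, then 0.185 and 0, and CG17192 read 2.82 and 2.35, then 0.084 and 0. Unlike the other fallers, tobi was well above 0 in both piwi libraries. The 2 that rose were CG31661, which encodes a pepsin-like aspartic protease, at 19.9 and 17.3 against 56.8 and 77.3, and CG31681 at 0.616 and 0.652 against 3.83 and 2.83. The gene of the list with the highest count, CG2915, was at 155 and 156 against 170.1 and 154. The log2 changes were −2.35 ± 0.23 (SE) for tobi, −2.29 ± 0.28 for CG18179, −1.78 ± 0.29 for CG17192, 1.78 ± 0.17 for CG31661 and 1.40 ± 0.27 for CG31681 (limma adjusted p of 0.0032 for CG31661 to 0.0347 for CG31681). Without piwi-embKD replicate 1 the list had 21 lower genes and 2 higher of 26 tested (19.2% and 16.9% of features). Without piwi-embKD replicate 2 it had 5 and 13 of 31 tested (8.92% and 11.0%), and with either control library left out it had 1 and 1.

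Other genes of the list, named after their values were seen, repeated the mixed pattern of the Jonah class. The alpha-mannosidase gene LManVI read 7.40 and 7.22 in the control pair, 29.1 in piwi-embKD replicate 1 and 0.064 in replicate 2. CG17571, a serine protease gene, read 3.89 and 3.63, then 16.3 and 0.091. The aspartic protease gene Bace read 29.9 and 25.4, then 27.0 and 0.082. In piwi-embKD replicate 1 LManVI and CG17571 lay above both control libraries and Bace lay between them. All 3 were near 0 in replicate 2.

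**Figure D4:**
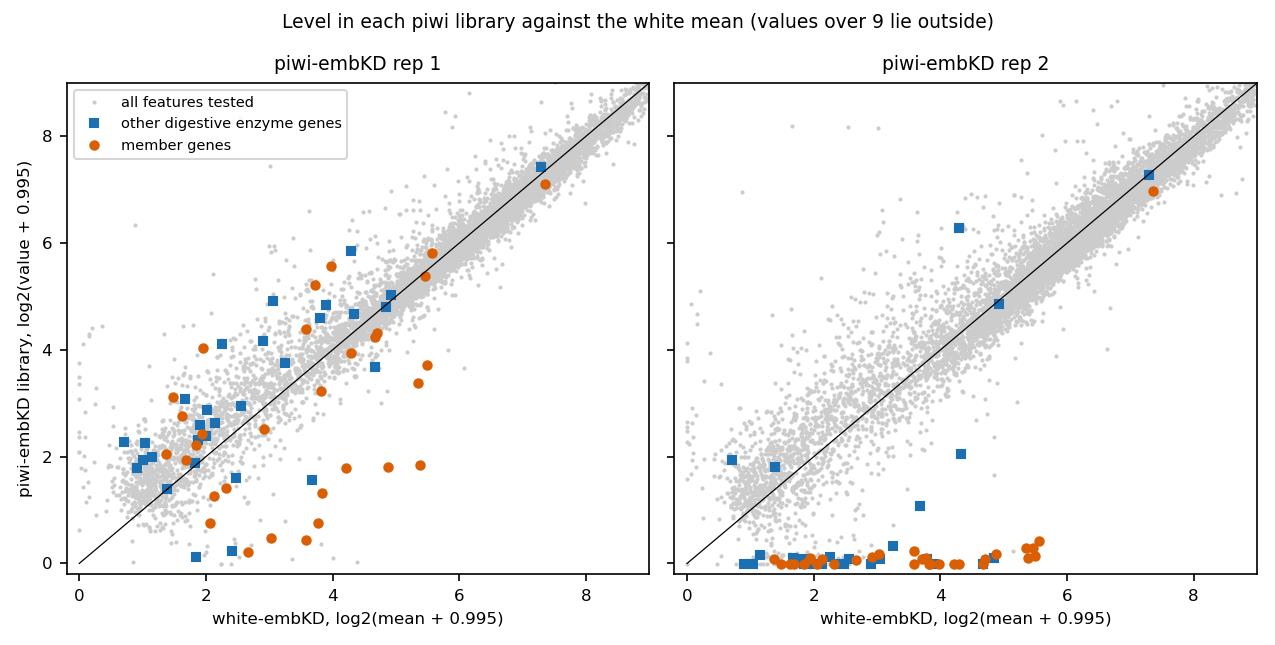
Level in piwi-embKD replicate 1 (left) and replicate 2 (right) against the white mean, both on the log2(value + 0.995) scale, with 8118 features in grey, the tested members in orange and the tested genes of the other digestive list in blue. The diagonal marks equal levels, and in replicate 2 most digestive genes lie at the bottom while in replicate 1 they lie on both sides.

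Among 20 gut identity genes, 4 were at 0 in each of the control libraries and in piwi-embKD replicate 1, and 10 were at 0 in replicate 2. Over all 14776 genes the counts at 0 were 4720, 4763, 4375 and 4900 in the same order. The marker mex1, named for its midgut expression, read 2.05 and 2.59 in the control pair, 2.52 in piwi-embKD replicate 1 and 0.144 in replicate 2. The gut transcription factor gene GATAe read 0.168 and 0.314, then 0.693 and 0.121. The change of mex1 did not pass (limma adjusted p = 0.429) and GATAe lay below the filter. The caudal gene cad, also known as a maternal transcript of the ovary, had the highest count of the list, at 343 and 299.7 against 297 and 340.4. Of the 20 genes only srp, cad, Delta and mex1 were tested, and of these 4 genes 0 were called in either direction.

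The next 5 lists hold genes named for other tissues that a dissected ovary can carry. They were not checked for expression in the ovary itself, so their levels do not measure carried tissue. Of their 37 tested genes, 1 stood under 5% of the white mean in piwi-embKD replicate 2, against 1.36% of features. It was the fat body list's Npc2d, named after its values were seen. Of 15 Malpighian tubule genes 9 were tested, of which 2 rose and 0 fell, where 5.17% of all features rose. Their summed level, most of it Best2, ZnT35C and kar, was 207 and 192 in the control pair and 276 and 318 in the piwi libraries. The tubule enzyme gene Uro read 3.92 and 3.35 in the control pair, against 8.67 and 4.91 in the piwi pair. Drip, a water channel gene, read 5.26 and 4.82, then 12.0 and 19.3, and kar read 31.1 and 27.3, then 49.7 and 80.4. Of 15 muscle genes 13 were tested and 6 rose, with Mhc at 16.0 and 14.4 against 31.2 and 27.5 and Zasp52 at 7.18 and 5.55 against 15.3 and 16.8. The muscle sum, most of it Tm1 (562 and 595 against 552 and 512), was 767 and 789 against 918 and 805.

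Of 13 fat body genes 7 were tested, of which 1 rose and 1 fell, against 5.17% and 1.68% of features. FASN1, the fatty acid synthase gene, read 86.1 and 82.5 in the control pair, against 179 and 187 in the piwi libraries, and Obp99a read 5.55 and 5.97 against 2.57 and 1.59. Of 11 blood cell genes 3 were tested and 1 rose, the collagen gene vkg, at 21.4 and 20.3 against 41.1 and 52.8. The fat body marker Fbp2 and the blood cell markers He and lz were at 0 in all 4 libraries. The peritrophic matrix list (2 of 11 genes tested) and the spermatheca and oviduct list (5 of 10 tested) had 0 calls. Their genes with the highest counts were Mur18B (37.4 and 36.2 against 50.5 and 30.0) and Hr39 (122 and 122 against 93.8 and 105). Over the 5 lists of other tissues (37 tested genes) with the gut identity and peritrophic matrix lists (4 and 2 tested), 10 genes were higher and 1 lower. The background was 5.17% of features higher and 1.68% lower. The gene srp is in both the gut identity and the blood cell list. The gut identity and peritrophic matrix lists gave 0 of these calls. The higher count fell with either control library left out and rose with either piwi library left out. The amount of gut in each dissection is not given in the labels, and its part in the results was not tested.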

How the data were processed

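Ovary RNA depleted of ribosomal RNA was sequenced in 4 libraries, grouped by title, and the labels call them biological replicates. The authors deposited a table per library whose signal, per the file headers, is an eXpress effective count times a normalization factor. The submitters' processing notes name Bowtie2, STAR, Cufflinks and dm3. The sources used here do not give the annotation, the strand setting or the source of the factor. eXpress divides fragments among similar targets by a model. Depth assumes that the smallest step in a table is 1e-06 of an effective count. Few values worth 0.5 to 20 counts were whole within 0.01 (1.95% to 2.22%), so no count test was run.

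A RefSeq table of Release 6 named 28593 of 29511 transcripts (96.9%), which were summed to 14776 genes. Version 3.58.1 of limma (R 4.3.3) fitted log2(value + 0.995) with a trend on mean level. The pseudocount and the filter on the mean are both the average library total divided by 1e+06. Two-sided p-values were adjusted (Benjamini-Hochberg) over 8118 features. Changes are piwi-embKD minus white-embKD and understate those of low genes. The fit was also run on simulated data with the same spread in every library, which does not cover a piwi pair as far apart as in these genes. Levels per kilobase used transcript lengths of Ensembl release 115.

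Members and lists were chosen with earlier results of these data known. Every member passing the filter is given by library. From other lists the rule names up to 5 called genes and the most abundant gene. Of the called muscle genes 2 are given. Genes outside the rule (LManVI, CG17571, Bace, Mal-B2, mex1, GATAe, Uro, Fbp2, He, lz, Npc2d, ZnT35C) were chosen after their values were seen. Alternatives were a smaller and a larger pseudocount, no filter and a stricter one, median-of-ratios scaling, no trend, a replicate block and each library left out.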

Additional observations from a re-analysis of the deposited data

How the results depend on the processing

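Leaving out 1 library in turn moved most counts, and piwi-embKD replicate 1 and replicate 2 moved them in different ways. Genes called lower ran from 22 to 1498 (127 with all libraries) and genes called higher from 137 to 1252 (348). Members called lower ran from 8 to 31 and members called higher from 0 to 6. Among the other digestive enzymes the counts ran from 1 to 21 lower and from 1 to 13 higher, and in the lists of other tissues from 0 to 4 lower and from 2 to 25 higher. Here and below, counts for other tissues also take in the gut identity and peritrophic matrix lists. The median log2 change ran from −3.65 to 0.087 in the Jonah proteases and from −3.82 to 0.24 in the amylases.

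Members that changed sign when a library was left out had log2 changes of −1.63 to 1.14 (thetaTry), −3.97 to 1.61 (Jon25Biii), −1.48 to 1.64 (Jon65Ai), −1.84 to 0.38 (Jon65Aii), −5.15 to 0.25 (Jon99Ciii), −1.86 to 2.09 (Jon99Fi), −3.63 to 1.5 (Jon99Fii), −1.84 to 0.48 (Mal-A2), −1.29 to 0.68 (Mal-A3), −1.69 to 0.25 (Mal-A4) and −3.35 to 0.82 (Amy-d). With the larger pseudocount thetaTry was at 0.051, and with the smaller one Jon65Ai was at −1.09 and Jon99Fi at −0.90.

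With no filter 21 genes were lower and 53 higher, 4 members were lower, 0 other digestive enzymes were higher, and the other tissues had 0 lower and 1 higher, while the medians were −0.37 for trypsins and −1.84 for lysozymes. The stricter filter left 1 other digestive enzyme in each direction, 0 lower genes of other tissues and a maltase median of −2.51. With the smaller pseudocount the maltase median was −2.46 and the lysozyme median −4.81, against −1.82 with the larger one. The smaller pseudocount and median-of-ratios scaling each left 0 lower genes of other tissues. The cause of these shifts was not tested.

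Whether same-numbered libraries were paired is not settled. The correlation of same-numbered deviations was 0.06, and the titles number only replicate 2 of each group. The replicate block gave 207 lower genes, 18 lower members, 5 lower digestive enzymes outside the members, and 2 lower and 16 higher genes of other tissues. The summed level of all members in the piwi libraries was 48.6% of the control mean, 49.2% with median-of-ratios scaling, 20.3% to 76.8% with a library left out, and 37.5% without Mal-A5, an alternative chosen after seeing the data. Values under about 0.19 in a piwi library rest on 3 counts or fewer.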
